A study of Homo sapiens with 12 samples.

Results

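SNARE proteins are the membrane-anchored proteins that drive the fusion of vesicles with their target membrane. 10 human SNARE genes of the plasma membrane, endosomes and lysosomes were examined here: VAMP3, VAMP7, VAMP8, STX3, STX4, STX7, STX8, STX12, SNAP23 and SNAP29. They are a list of names chosen with earlier results of these data known, and all 10 were found among the 18417 genes measured. Each was read from the probe set that carries its symbol alone and has the highest mean over all 12 arrays. VAMP7 had a second probe set with identical values on every array, and the other 9 genes had 1 probe set each.

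RNA levels were measured on 12 whole-transcript arrays in cells labelled Calu-3, which is a line of human lung adenocarcinoma cells with airway epithelial traits, although the extraction protocol mentions primary cultures instead. 6 arrays held cells that received NC1, a scrambled control oligonucleotide (replicates 1 to 6), 3 held cells that received a small interfering RNA against SIN3A, and 3 held cells that received a mimic of the microRNA miR-138. All groups were transfected with the same lipid reagent, and no dose, harvest time or untransfected control is given in the labels. SIN3A holds together a chromatin complex that removes acetyl groups from histones, and the study's title concerns control of CFTR, an epithelial chloride channel, by microRNAs. All values are log2 levels, so a difference of 1 is a doubling. Differences between arrays are taken within a gene, and a level is set against the median gene of its array only to say how bright a probe set is. Replicates are called biological, but nothing says that they came from separate cultures, and the p-values therefore cover only array-to-array spread that may be technical. In such bulk RNA, fewer cells of a kind and less RNA per cell cannot be told apart.

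A SNARE complex forms when a vesicle protein of the R type (the VAMP proteins) zips together with Q-type proteins on the target membrane. The syntaxins (STX) supply 1 or more of the Q helices, and proteins of the SNAP family supply a pair of helices on 1 chain. STX3 and STX4 with SNAP23 serve the apical and basolateral plasma membrane of epithelial cells, whereas STX7, STX8 and VAMP8 with VTI1B serve fusion of late endosomes with each other and with lysosomes. VAMP8 is also known for the release of mucin granules in airway epithelium, and SNAP29 for the fusion of autophagosomes with lysosomes. CFTR itself is inserted into and retrieved from the apical membrane by such vesicle traffic.

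Before the results, 2 facts about the libraries bear on every value below. NC1 replicates 4 to 6 differed from replicates 1 to 3 for 10% of all genes (limma, adjusted p under 0.05), although the labels describe them alike. Earlier work inferred these parts from the same values, so this share and the p-values between the parts depend on that choice. With the siRNA, SIN3A, its target, fell to 54.2% of the NC1 level (66.3% of NC1 1 to 3 and 44.2% of NC1 4 to 6) and CFTR to 39.5%. With the mimic SIN3A fell to 56.1% (68.7% and 45.8% of the parts), while CFTR was at 76.1% (limma adjusted p = 0.244), 85.9% of NC1 1 to 3 (limma adjusted p = 0.355) and 67.5% of NC1 4 to 6 (limma adjusted p = 0.0188). SIN3A was itself higher in NC1 4 to 6 than in NC1 1 to 3 (log2 difference 0.58, limma adjusted p = 0.00574). All 11 airway epithelial markers lay above the median gene on all 12 arrays (EPCAM, CDH1 and keratin genes among them), while 0 of 5 endothelial, 1 of 6 fibroblast (COL1A1) and 1 of 5 leukocyte markers (CD68) did. CFTR is itself one of the epithelial markers. The mean level of the other 10 ranged from 7.72 to 7.77 over the NC1 arrays, from 7.73 to 7.85 with the siRNA and from 7.63 to 7.72 with the mimic, and with CFTR included from 7.70 to 7.81, 7.64 to 7.74 and 7.63 to 7.70. The mean of the leukocyte markers ranged from 4.68 to 4.97 over the NC1 arrays, from 4.89 to 4.93 with the siRNA and was 4.87 on each mimic array. CD68 among them was higher with the siRNA (log2 0.55, limma adjusted p = 0.00266) and with the mimic (0.48, limma adjusted p = 0.0164) than in NC1 4 to 6. It was lower in NC1 4 to 6 than in NC1 1 to 3 (-0.46, limma adjusted p = 0.0113). Against all NC1 arrays CD68 was not called with siRNA or mimic (0.32 and 0.26, limma adjusted p = 0.262 and 0.528). Nor was it against NC1 1 to 3 (0.092 and 0.027, limma adjusted p = 0.709 and 0.921). The other leukocyte markers were not called with either treatment against NC1 4 to 6 (from -0.17 for CD3E with the mimic to 0.11 for PTPRC with the siRNA). The part of these shifts in the results below was not tested.

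The agent of the mimic arrays is shown first, because the seed (bases 2 to 8) is the stretch by which a microRNA recognises messages. The labels do not give the arm, and the 5p arm is the one RefSeq lists under both human genes, MIR138-1 (GRCh38.p14, chr3:44114234-44114256, plus strand) and MIR138-2 (chr16:56858527-56858549, plus strand). The seed is in capitals.
hsa-miR-138-5p: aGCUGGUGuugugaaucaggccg

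With SIN3A siRNA, 4 of the 10 SNARE genes were called higher. VAMP8, STX7, STX12 and SNAP29 rose against all 6 NC1 arrays, by 1.28-fold to 1.53-fold, and 0 of 10 fell. In this comparison 2.35% of all genes were called higher, 1.66% lower and 4.01% in either direction (limma, Benjamini-Hochberg adjusted p under 0.05 over all genes). The median log2 fold change of the 10 genes was 0.43, beside -0.0054 over all genes. The list was chosen with earlier results of these data known, so setting it beside all genes does not test it. For 7 of the 10 genes (VAMP8, STX4, STX7, STX8, STX12, SNAP23 and SNAP29) every siRNA array lay above every NC1 array, as was the case for 5.49% of all genes. VAMP3 and STX3 were at -0.045 and 0.014.

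**Figure D1:**
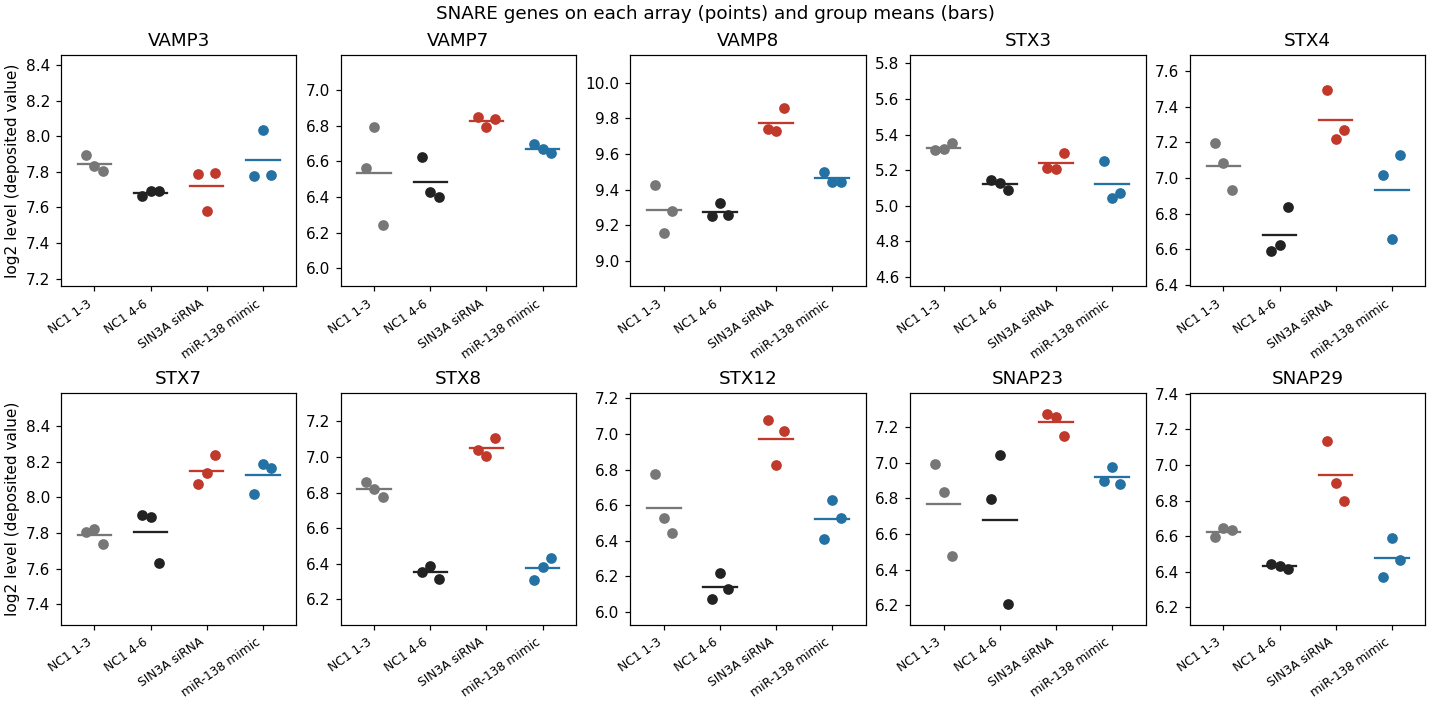
Log2 level (vertical axis, deposited value, every panel spans 1.3 log2 units) of the 10 SNARE genes on each array (points), by group (horizontal axis), with group means as bars. In VAMP8 the siRNA arrays (9.73 to 9.86) lie above all NC1 arrays (9.15 to 9.42), and in STX8 and STX12 NC1 4 to 6 lies below NC1 1 to 3.

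Among the R-SNAREs, VAMP8, the vesicle protein of late endosomes, lysosomes and secretory granules, rose with the siRNA. Its level was 9.74, 9.73 and 9.86 on the siRNA arrays, against 9.15, 9.27 and 9.42 (lowest, median and highest) on the NC1 arrays. The lowest siRNA array stood above the highest NC1 array, and the parts of the control overlapped. VAMP8 rose 1.41-fold (log2 0.50, SE 0.07, limma adjusted p = 0.00313, exact permutation p = 0.0119). No smaller permutation p is possible with the 84 splits of 3 against 6 arrays. The rise was nearly the same size against NC1 1 to 3 (0.49, limma adjusted p = 0.00416) and against NC1 4 to 6 (0.50, limma adjusted p = 0.00126). It kept its call whichever array was left out (highest limma adjusted p = 0.0304).

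VAMP7, an R-SNARE of late endosomes and lysosomes that also serves the plasma membrane, stood at 6.85, 6.79 and 6.84 with the siRNA. The NC1 arrays ran from 6.24 over a median of 6.49 to 6.79, so that only the highest of them, NC1 2, reached the lowest siRNA array. The difference did not pass the test (log2 0.32, SE 0.10, limma adjusted p = 0.102, exact permutation p = 0.0476), and it did without NC1 2 (limma adjusted p = 0.0297). It was 0.30 against NC1 1 to 3 (limma adjusted p = 0.164) and 0.34 against NC1 4 to 6 (limma adjusted p = 0.0691). VAMP3, the R-SNARE of recycling endosomes, was at 7.79, 7.58 and 7.79 with the siRNA. The NC1 arrays ran from 7.66 to 7.89, so that 2 siRNA arrays lay inside that range and siRNA 2 below it, with a difference of -0.045 (SE 0.09, limma adjusted p = 0.877). All siRNA arrays lay below NC1 1 to 3 (-0.13, limma adjusted p = 0.515) and overlapped NC1 4 to 6 (0.036, limma adjusted p = 0.893).

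Among the endosomal syntaxins, STX7, the Qa-SNARE of late endosomes, stood at 8.08, 8.13 and 8.24 with the siRNA. The NC1 arrays had 7.63, 7.81 and 7.90 as lowest, median and highest, below every siRNA array. STX7 rose 1.28-fold (log2 0.35, SE 0.08, limma adjusted p = 0.0252, exact permutation p = 0.0119), and by 0.36 against replicates 1 to 3 (limma adjusted p = 0.0349) and 0.34 against replicates 4 to 6 (0.0260). The call against all NC1 arrays was lost without any 1 siRNA array (limma adjusted p = 0.0611, 0.0929 and 0.146 without siRNA 1, 2 and 3). That against NC1 1 to 3 was lost without NC1 2, NC1 3, any siRNA array or mimic 3 (up to 0.135), and that against NC1 4 to 6 without siRNA 2, siRNA 3 or NC1 6 (up to 0.113).

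STX12 (also called syntaxin 13), the Qa-SNARE of recycling endosomes, had the largest difference of the 10 genes from all NC1 arrays and from NC1 4 to 6, whereas VAMP8 and SNAP23 had larger ones from NC1 1 to 3. Its level was 7.08, 6.83 and 7.01 with the siRNA, 6.78, 6.53 and 6.45 in NC1 1 to 3 and 6.08, 6.22 and 6.13 in NC1 4 to 6. The siRNA arrays were the highest and NC1 4 to 6 the lowest, with no overlap between these 3 groups of arrays. STX12 rose 1.53-fold against all NC1 arrays (log2 0.61, SE 0.13, exact permutation p = 0.0238, limma adjusted p = 0.0209). The rise was 0.39 against NC1 1 to 3 (limma adjusted p = 0.0385) and 0.83 against NC1 4 to 6 (limma adjusted p = 6.41e-05). Against all NC1 arrays the call was lost without any 1 siRNA array (limma adjusted p = 0.105, 0.0587 and 0.105). Against NC1 1 to 3 it was lost without NC1 2, 3, 4 or 5, siRNA 1 or 3, or mimic 3 (up to 0.142), and against NC1 4 to 6 it was kept without any array.

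STX8, the Qc-SNARE of late endosomes, showed a like order. Its level was 7.04, 7.003 and 7.11 with the siRNA, 6.86, 6.82 and 6.78 in NC1 1 to 3 and 6.35, 6.39 and 6.32 in NC1 4 to 6. Every siRNA array stood above both parts of the control, which stood well apart from each other. Against all NC1 arrays the difference of 0.46 (SE 0.12) missed the threshold (limma adjusted p = 0.0515, exact permutation p = 0.0238), and it passed without NC1 1, 2 or 3 (limma adjusted p = 0.0266, 0.0342 and 0.0299). It was 0.70 against NC1 4 to 6 (SE 0.08, limma adjusted p = 2.79e-05) and 0.23 against NC1 1 to 3 (SE 0.08, limma adjusted p = 0.111).

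Of the SNAREs that supply a pair of helices on 1 chain, SNAP29, which acts at many internal membranes including autophagosomes, stood at 7.13, 6.90 and 6.80 with the siRNA. NC1 1 to 3 were at 6.59, 6.64 and 6.63, and NC1 4 to 6 at 6.44, 6.43 and 6.42. All siRNA arrays were above all controls, and the siRNA arrays spread more widely than either part of the control. SNAP29 rose 1.33-fold (log2 0.41, SE 0.09, exact permutation p = 0.0119, limma adjusted p = 0.0221). The difference was 0.51 against NC1 4 to 6 (limma adjusted p = 0.00192) and a smaller 0.32 against replicates 1 to 3, which did not pass (limma adjusted p = 0.0643). Against all NC1 arrays the call was lost without siRNA 1 (limma adjusted p = 0.131) or siRNA 2 (0.0756).

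SNAP23, the widely expressed partner of plasma membrane syntaxins, was at 7.28, 7.26 and 7.15 with the siRNA. The NC1 arrays ran from 6.21 over a median of 6.82 to 7.04, the widest spread of the 10 genes in the control (SD 0.32, n = 6), against 0.07 (SD, n = 3) with the siRNA. Although no NC1 array reached the siRNA arrays, the difference of 0.50 (SE 0.15) did not pass (limma adjusted p = 0.0785, exact permutation p = 0.0357). It passed without NC1 1 (limma adjusted p = 0.0499) or NC1 5 (0.0482), and against NC1 4 to 6 (0.55, limma adjusted p = 0.0430) but not against NC1 1 to 3 (0.46, limma adjusted p = 0.131). The first of these was lost without NC1 2, 4 or 6, any siRNA array or any mimic array (up to 0.180), and the second passed without NC1 6 (0.0336).

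The plasma membrane syntaxins were not called against all NC1 arrays. STX4, the Qa-SNARE of the basolateral membrane, stood at 7.49, 7.22 and 7.27 with the siRNA, 7.19, 7.08 and 6.93 in NC1 1 to 3 and 6.59, 6.62 and 6.83 in NC1 4 to 6. The difference of 0.45 from all NC1 arrays (SE 0.14) did not pass (limma adjusted p = 0.0963, exact permutation p = 0.0357), and passed without NC1 1 (limma adjusted p = 0.0433). It was 0.64 against NC1 4 to 6 (limma adjusted p = 0.00248) and 0.26 against NC1 1 to 3 (limma adjusted p = 0.280). STX3, the Qa-SNARE of the apical membrane, had 5.04 to 5.35 over all arrays, around the median of all genes (5.25 to 5.33 by array). Its level was 5.21, 5.21 and 5.29 with the siRNA, between NC1 1 to 3 (5.31 to 5.35) and NC1 4 to 6 (5.09 to 5.15). The difference was 0.014 (SE 0.08, limma adjusted p = 0.967).

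Set against the parts of the control, 3 of the 10 genes were called higher with the siRNA against NC1 1 to 3 (VAMP8, STX7 and STX12, where 3.66% of all genes were called higher) and 7 against NC1 4 to 6 (these 3 with STX4, STX8, SNAP23 and SNAP29, where 5.16% were). 0 were called lower against either part, beside 2.04% and 6.28% of all genes. The medians of the 10 log2 fold changes were 0.31 and 0.51, and those of all genes -0.010 and 0.0049. VAMP8 and STX7 thus kept the same size of change against both parts, whereas STX4, STX8 and STX12 more than doubled it against NC1 4 to 6. Without 1 array at a time, 1 to 7 of the 10 genes were called against all NC1 arrays: 1 without siRNA 1 or siRNA 2, 2 without siRNA 3, and 7 without NC1 1. The calls over all 18417 genes moved too, from 739 to 254, 191 and 165 without siRNA 1, 2 and 3, and to 836 without NC1 1.

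**Figure D2:**
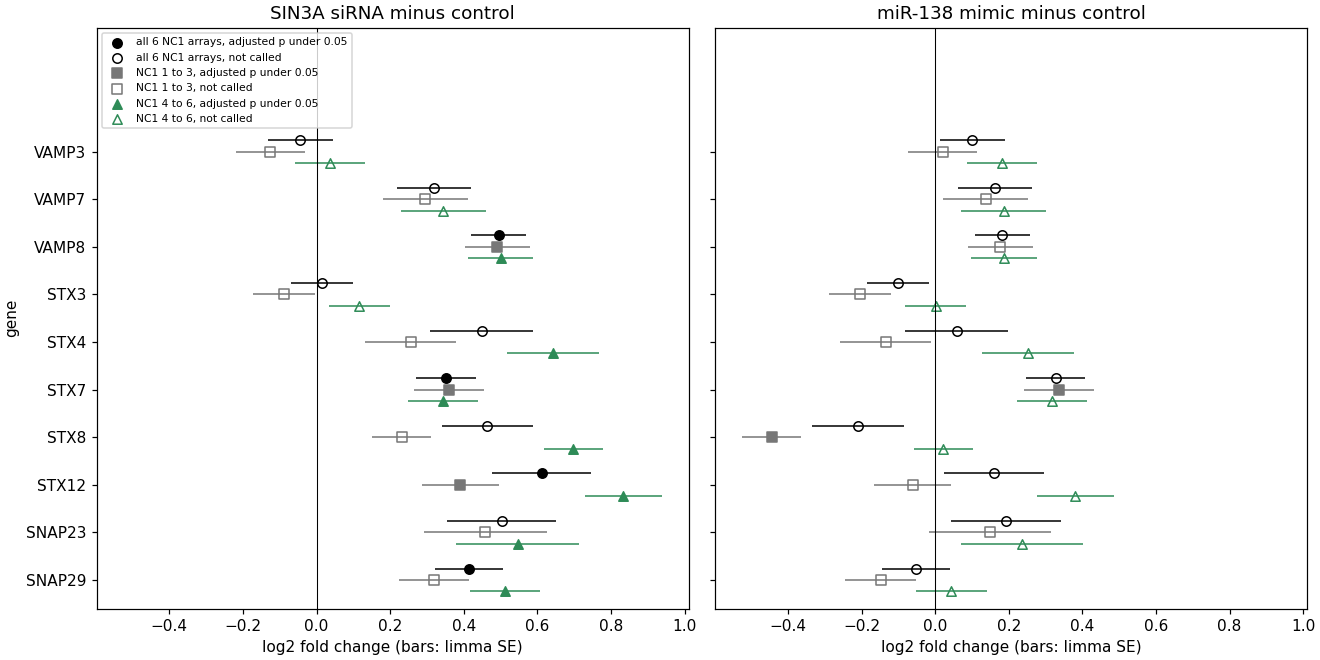
Log2 fold change (horizontal axis, bars are limma standard errors) of each SNARE gene (vertical axis) with SIN3A siRNA (left) and miR-138 mimic (right), against all 6 NC1 arrays, NC1 1 to 3 or NC1 4 to 6, with filled marks for an adjusted p under 0.05. VAMP8 is filled for all 3 controls on the left (0.50, 0.49 and 0.50), and on the right only STX7 and STX8 against NC1 1 to 3 are filled (0.34 and -0.44).

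The parts of the control, which earlier work inferred from these values, differed for some of these genes. In NC1 4 to 6 against NC1 1 to 3, STX8 was 0.47 lower on the log2 scale (-0.47, SE 0.08, limma adjusted p = 0.00116) and STX12 0.44 lower (-0.44, SE 0.10, limma adjusted p = 0.0119), so 2 of 10 were called lower and 0 higher. Among all genes 3.18% were called lower in that comparison. STX4 was at -0.39 (limma adjusted p = 0.0608). VAMP3, STX3, STX4, STX8, STX12 and SNAP29 had all arrays of NC1 4 to 6 below all of NC1 1 to 3, which held for 10.4% of all genes. The call of STX12 was lost without NC1 4 (limma adjusted p = 0.0598), and that of STX8 was kept without any array. STX4 passed without NC1 3, NC1 6 or mimic 2 (0.0356 to 0.0483). VAMP8 (-0.0098) and STX7 (0.017) had nearly the same mean in both parts.

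With the miR-138 mimic 0 of 10 SNARE genes passed the test against all NC1 arrays, by limma, where 1.04% of all genes were called in either direction. STX7 and VAMP8 were the 2 genes with an unadjusted p under 0.05, and the only ones whose mimic arrays all lay above all NC1 arrays, as 3.89% of all genes did. How many of all genes fell under 0.05 before adjustment was not counted, here or below. STX7 stood at 8.02, 8.19 and 8.17, near the siRNA arrays (log2 difference from NC1 0.33, SE 0.08, limma adjusted p = 0.0729, exact permutation p = 0.0119). Against NC1 1 to 3 STX7 was called higher (0.34, limma adjusted p = 0.0370) and STX8 lower, so 2 of 10 were called there, beside 8.55% of all genes. Against NC1 4 to 6, 0 of 10 were called by limma, beside 3.49% of all genes, with STX7 at 0.32 (limma adjusted p = 0.0884). Before adjustment, STX7 and STX12 had a limma p under 0.05 there. The call of STX7 against NC1 1 to 3 was lost without any NC1 1 to 3 array, siRNA 2, mimic 2 or mimic 3 (limma adjusted p from 0.0505 to 0.139). VAMP8 was at 9.50, 9.44 and 9.44, between the control and the siRNA arrays (0.18, SE 0.07, limma adjusted p = 0.350, exact permutation p = 0.0238).

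For the other 8 genes the mimic arrays overlapped the NC1 arrays. STX8 was at 6.31, 6.38 and 6.43, which overlaps NC1 4 to 6 (0.022) and is below NC1 1 to 3 (-0.44, SE 0.08, limma adjusted p = 0.00236, called without any 1 array too). Against all NC1 arrays STX8 was at -0.21 (limma adjusted p = 0.584). STX12 was at 6.41, 6.63 and 6.53, that is 0.38 against NC1 4 to 6 (limma adjusted p = 0.0588, and 0.0312 without NC1 1 or 0.0364 without NC1 3) and -0.061 against NC1 1 to 3 (limma adjusted p = 0.796), so its direction turned with the control. The direction also turned for STX3, STX4, STX8 and SNAP29, each with a value above 0 against NC1 4 to 6 and below 0 against NC1 1 to 3. VAMP3 (0.10), VAMP7 (0.16) and SNAP23 (0.19) were above 0 against all NC1 arrays, with limma adjusted p from 0.611 to 0.758. Over the 10 genes the median log2 fold change was 0.13 against all NC1 arrays, -0.020 against NC1 1 to 3 and 0.19 against NC1 4 to 6, beside -0.015, -0.023 and -0.0047 over all genes.

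Set against each other directly, the mimic arrays had lower levels than the siRNA arrays of STX8 and SNAP29. STX8 was at 62.6% of the siRNA level (log2 -0.67, SE 0.14, limma adjusted p = 0.0311) and SNAP29 at 72.4% (-0.47, SE 0.11, limma adjusted p = 0.0427), where 0.89% of all genes were called lower and 1.57% in either direction. The exact permutation p of each was 0.1, the smallest that 3 against 3 arrays allow. For VAMP7, VAMP8, STX4, STX8, STX12, SNAP23 and SNAP29 all mimic arrays lay below all siRNA arrays, as 13.1% of all genes did. For STX7 the treatments differed by less than the error (-0.024, SE 0.09, limma adjusted p = 0.953), which does not show equality. Both calls were lost without any 1 of the 6 treated arrays (limma adjusted p 0.0961 to 0.125 for STX8 and 0.0718 to 0.171 for SNAP29). With the array set as a block (the siRNA with NC1 1 to 3 and the mimic with NC1 4 to 6, sets that the labels do not give), the differences were -0.21 for STX8 (limma adjusted p = 0.474) and -0.27 for SNAP29 (limma adjusted p = 0.414). In that fit STX4 was at -0.0027 and STX12 at -0.0096, beside -0.39 and -0.45 without the block, and VAMP8 at -0.30, beside -0.31.

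Ordered by group means, SIN3A siRNA was the highest of the 4 groups of arrays for VAMP7, VAMP8, STX4, STX7, STX8, STX12, SNAP23 and SNAP29. The next group was the mimic for VAMP7, VAMP8, STX7 and SNAP23, and NC1 1 to 3 for STX4, STX8, STX12 and SNAP29. NC1 4 to 6 was the lowest for all but STX7, which had NC1 1 to 3 lowest by 0.017. For STX3 it lay below the mimic by only 0.0013. How often all genes took these orders was not counted. Over all 12 arrays STX12 varied most (SD 0.33) and STX3 least (SD 0.11), beside a median SD of 0.15 over all genes.

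Other genes of the fusion machinery were taken from lists, which were also chosen with earlier results of these data known. Of 25 measured other SNARE genes, 3 rose with SIN3A siRNA and 0 fell against all NC1 arrays (2.35% and 1.66% of all genes), with a median log2 fold change of 0.047. These counts depended on the control. Against NC1 1 to 3, 1 was higher and 0 lower (3.66% and 2.04% of all genes), and against NC1 4 to 6, 8 were higher and 2 lower (5.16% and 6.28%). VTI1B, the Qb-SNARE that joins STX7, STX8 and VAMP8 in the late endosomal complex, was at 7.88 ± 0.17 (SD, n = 3) with the siRNA and 7.31 ± 0.14 (SD, n = 6) with NC1 (log2 0.56, SE 0.10, limma adjusted p = 0.00599). It was called against NC1 1 to 3 (0.65) and NC1 4 to 6 (0.47), and the call against all NC1 arrays was lost only without siRNA 3 (limma adjusted p = 0.0503). YKT6, an R-SNARE of Golgi and autophagosomes, rose by 0.55 (limma adjusted p = 0.0356), with 0.31 against NC1 1 to 3 (not called) and 0.79 against NC1 4 to 6. GOSR2, a Golgi Qb-SNARE, rose by 0.33 (limma adjusted p = 0.0218), with 0.30 against replicates 1 to 3 (limma adjusted p = 0.0518, not called) and 0.36 against replicates 4 to 6 (0.0105). Left without 1 array, GOSR2 lost its call for any siRNA array (limma adjusted p up to 0.108), and YKT6 for any siRNA or mimic array, NC1 4 or NC1 5 (up to 0.174).

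The SNARE regulators were the disassembly factors NSF, NAPA, NAPB and NAPG, Sec1/Munc18 proteins and others. Of 24 measured regulators, 0 were called with the siRNA in either direction against all NC1 arrays (limma, beside 4.01% of all genes). Their median was -0.012. Against NC1 1 to 3, 1 was called higher (3.66% of all genes), and against NC1 4 to 6, 2 were called lower (6.28%). Both counts lie near those shares. Of 26 measured tethers, which hold vesicles near their target, 2 rose and 0 fell against all NC1 arrays (2.35% and 1.66% of all genes). Against NC1 1 to 3, 2 tethers rose and 0 fell (3.66% and 2.04%), and against NC1 4 to 6, 3 rose and 2 fell (5.16% and 6.28%). The 2 called against all NC1 arrays were VPS53 of the Golgi-associated retrograde complex (0.43, SE 0.08, limma adjusted p = 0.0116) and EEA1 of early endosomes (0.56, SE 0.14, limma adjusted p = 0.0410). VPS53 lost its call without siRNA 2 or siRNA 3 (limma adjusted p up to 0.0759), and EEA1 without any siRNA or mimic array or NC1 2, 5 or 6 (up to 0.207). The median of the tethers was 0.069.

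With the mimic, 0 of the other SNARE genes and 0 of the tethers were called against all NC1 arrays (limma), and 2 of the 24 regulators rose, beside 1.04% of all genes called. Against NC1 1 to 3, where 8.55% of all genes were called, 1 other SNARE, 2 regulators and 5 tethers were higher and 0 lower. Against NC1 4 to 6, where 3.49% were called, 2 other SNAREs and 2 regulators were higher, 1 regulator was lower and 0 tethers were called. STXBP3, the Munc18 protein that binds STX4 and is also known as Munc18c, was at 7.01 ± 0.05 (SD, n = 3) with the mimic and 6.08 ± 0.42 (SD, n = 6) with NC1. That is a log2 fold change of 0.93 (SE 0.19, limma adjusted p = 0.0299), which was 1.24 relative to replicates 1 to 3 and 0.61 relative to replicates 4 to 6 of the control (limma adjusted p = 4.39e-05 and 0.0189). VPS33A, the Sec1/Munc18 subunit of the endolysosomal tethering complex, rose by 0.62 (SE 0.13, limma adjusted p = 0.0303), with 0.80 and 0.44 against the parts, each called. Both lost the call against all NC1 arrays without any mimic array, NC1 2, NC1 6 or siRNA 2, and VPS33A also without siRNA 3 (limma adjusted p up to 0.165 for STXBP3 and 0.179 for VPS33A).

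**Figure D3:**
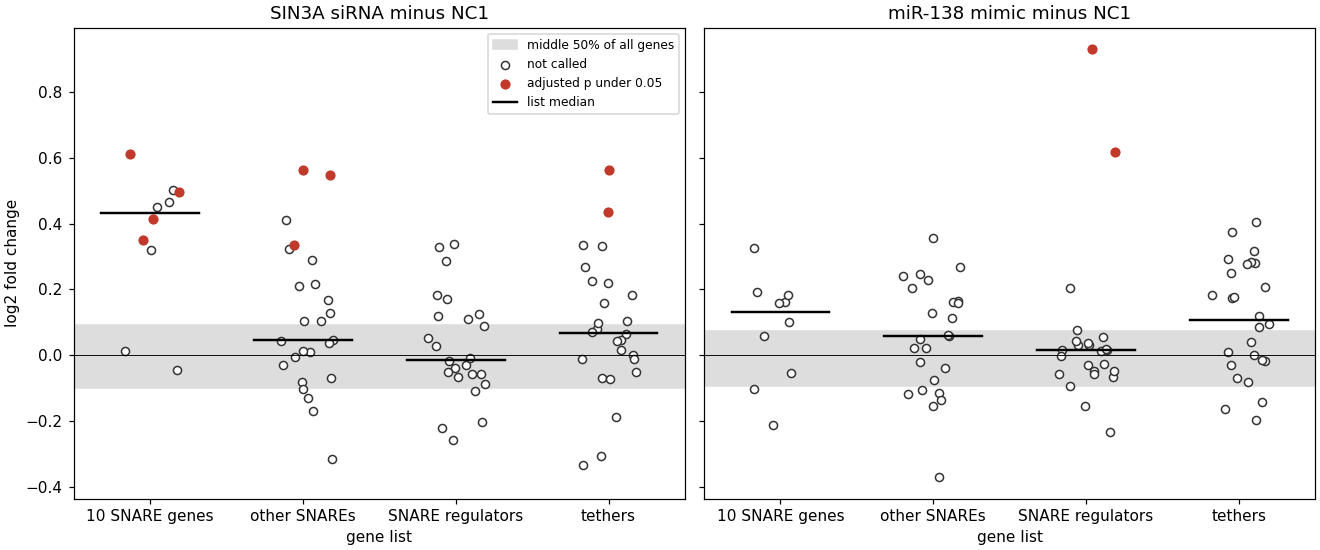
Log2 fold change against all 6 NC1 arrays (vertical axis) of the 10 SNARE genes, 25 other SNAREs, 24 regulators and 26 tethers (horizontal axis; points are genes, spread sideways for view) with SIN3A siRNA (left) and miR-138 mimic (right). Filled points passed the test, short bars are list medians (0.43, 0.047, -0.012 and 0.069 on the left) and the grey band holds the middle of all genes, from the lower to the upper quartile.

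For the 4 genes that rose with the siRNA, the genes with the closest profiles were sought by the root-mean-square difference of log2 levels, each centred on its own mean over the 12 arrays. VAMP8 was closest to BMS1P20 (0.072), KARS1 (0.076) and COX14 (0.076), beside a median of 0.26 over all genes. STX7 was closest to BBS7 (0.076), TBPL1 (0.080) and MAP3K2 (0.082), with a median of 0.25. STX12 was closest to ARL14 (0.083), SIKE1 (0.12) and JMJD6 (0.12), with a median of 0.34 over all genes. SNAP29 was closest to SMTN (0.089), ZNF729 (0.091) and ARPC1A (0.095), with a median of 0.26. The 4 SNARE genes shared none of these neighbours. For a gene with small changes a small distance is easily reached, and the measure says nothing of shared control.

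**Figure D4:**
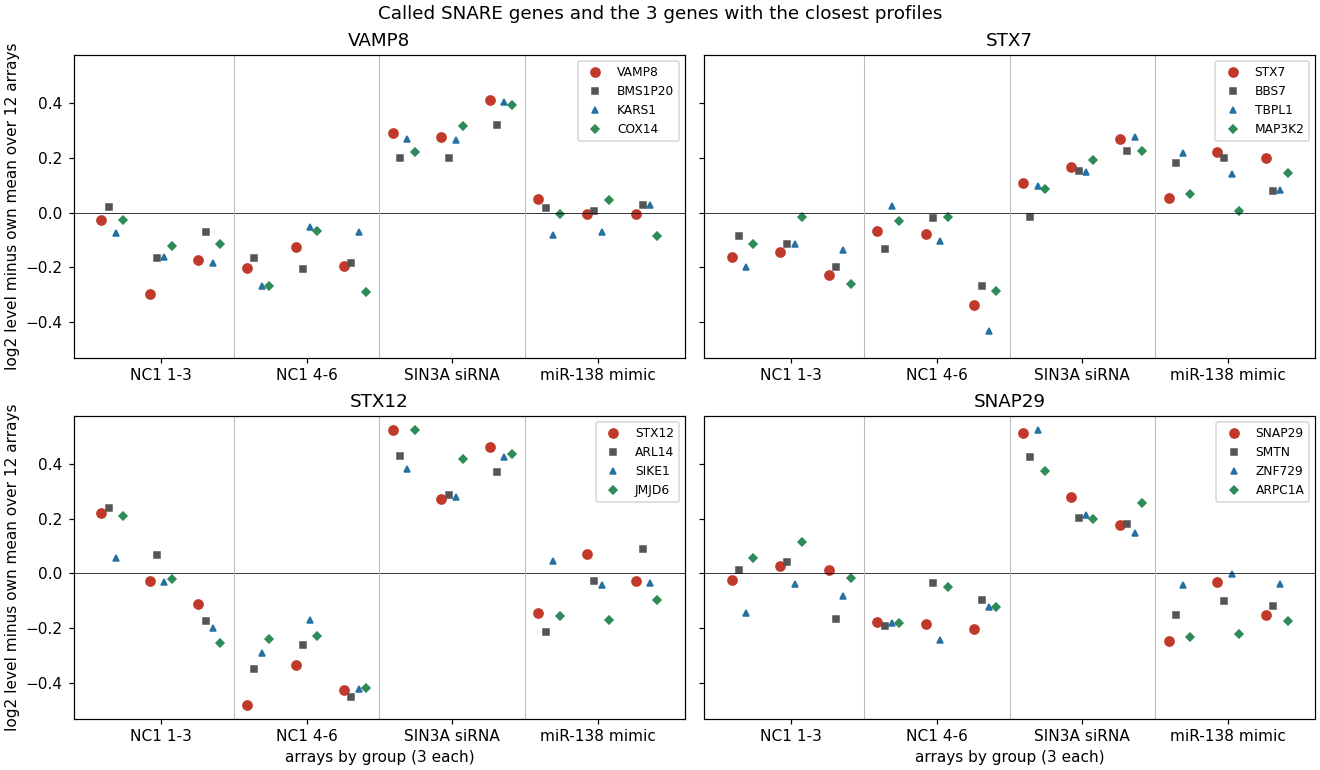
Log2 level minus the gene's own mean over 12 arrays (vertical axis) for VAMP8, STX7, STX12 and SNAP29 and for the 3 genes closest to each, on the arrays of each group (horizontal axis, 3 arrays a group). For STX7 both treated groups lie high, and for VAMP8, STX12 and SNAP29 the siRNA arrays alone lie highest.

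The sequences upstream of 3 of these 4 genes are shown because each was called higher with the siRNA against all NC1 arrays and has a single start in RefSeq. STX7 has 3 listed starts and is not shown. Each stretch is the 250 bases before the start, GRCh38.p14, plus strand: VAMP8 at chr2:85577336-85577585, STX12 at chr1:27772969-27773218 and SNAP29 at chr22:20858757-20859006. Capitals mark 4 motifs searched on both strands, none of which overlap here: the E-box CACGTG, the CCAAT box CCAAT, the GC box GGGCGG and the cAMP response element TGACGTCA.
VAMP8: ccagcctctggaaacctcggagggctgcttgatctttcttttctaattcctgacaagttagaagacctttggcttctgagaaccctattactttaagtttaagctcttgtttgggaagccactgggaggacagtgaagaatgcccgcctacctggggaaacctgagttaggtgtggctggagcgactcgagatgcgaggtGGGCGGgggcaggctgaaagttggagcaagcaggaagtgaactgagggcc
STX12: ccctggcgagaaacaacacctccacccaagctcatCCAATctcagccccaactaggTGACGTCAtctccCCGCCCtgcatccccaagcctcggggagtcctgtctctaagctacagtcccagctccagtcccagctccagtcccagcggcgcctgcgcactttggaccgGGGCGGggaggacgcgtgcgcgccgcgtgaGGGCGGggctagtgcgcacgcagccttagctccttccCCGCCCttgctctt
SNAP29: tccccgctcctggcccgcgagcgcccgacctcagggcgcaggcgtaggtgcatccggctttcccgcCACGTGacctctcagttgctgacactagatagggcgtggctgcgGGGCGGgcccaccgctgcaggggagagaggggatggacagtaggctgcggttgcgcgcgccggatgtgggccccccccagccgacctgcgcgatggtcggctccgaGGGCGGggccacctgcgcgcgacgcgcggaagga

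The GC box was the 1 motif found in all 3 stretches, once in VAMP8 (50 to 45 bases before the start), 4 times in STX12 and 2 times in SNAP29. It is a common motif, present in 42.6% of the 35116 listed starts over the same length. STX12 also held a CCAAT box (32% of starts) and a cAMP response element 194 to 187 bases before its start (1.65% of starts), and SNAP29 held an E-box 184 to 179 bases before its start (6.34% of starts). The G and C content was 52.8% in VAMP8, 66.4% in STX12 and 73.6% in SNAP29, beside a median of 58% over all listed starts. Of all 10 genes 7 held a GC box at 1 or more listed starts, among them VAMP3, STX3 and STX4, which were not called against all NC1 arrays. STX4 and STX7 have 3 listed starts each, so this count of genes is not like the share of starts above. A match describes letters and not binding.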

How the data were processed

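The data were 1 table of 33297 probe sets on 12 arrays. The deposited values are log2 levels, taken as such from their range and near-equal array medians (5.09 to 5.16). RMA and Partek 6.3 are named, per the submitters' processing notes, without the role of either. How background and probes were treated, and the genome build, is not stated in the labels. The values were used as deposited, and their precision is limited by the number of arrays. Per GEO's platform annotation 12083 probe sets had no gene symbol, 1754 had more than 1 and 19460 a single one. A gene's value is that of its brightest probe set that names it alone (18417 genes, no filter on dim ones).

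limma 3.58.1 under R 4.3.3 was fitted over all genes with 3 group means (9 residual degrees of freedom) or with NC1 1 to 3 and NC1 4 to 6 apart (8). A gene was called at a Benjamini-Hochberg adjusted p under 0.05 over all genes. Exact permutation tests over arrays are two-sided. The fit was tested on simulated data. The parts of NC1 are not in the labels, and earlier work inferred them from these values. The members and lists were chosen with earlier results of these data known. Named beside the 10 genes were SIN3A, CFTR, up to 4 called genes in each direction from each list of other SNAREs, regulators and tethers, and the 3 closest profiles of each called member. Some listed genes are not reported here. Promoter and microRNA sequences are from RefSeq (GRCh38.p14), matched by symbol for 10 of 10 members.

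Alternatives were the replicate number or the array set (NC1 1 to 3 with the siRNA, NC1 4 to 6 with the mimic) as a block, a second quantile normalization, the mean of a gene's probe sets, only genes at or above the median level, a variance trend with robust variances, only the arrays compared, and leaving out each array.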

Additional observations from a re-analysis of the deposited data

How the results depend on the processing

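With SIN3A siRNA against NC1, 4 members were called (739 genes in all), and 2 with the replicate block (708 genes). The count was 1 with only the arrays compared (357 genes) and 1 to 7 without 1 array (165 to 1033 genes). No treated array shares a number with NC1 4 to 6, so the replicate block also changes the control: its differences from NC1 are those from NC1 1 to 3, and it counts 2 members beside 3 for that control without the block. Replicate numbers were not taken to pair the arrays, since same-numbered arrays of NC1 1 to 3, siRNA and mimic did not deviate together (correlations of deviations from -0.10 to 0.03). Pairs of NC1 4 to 6 with treated arrays were not examined. With that replicate block VAMP8 (limma adjusted p = 0.0177) and SNAP23 (0.0377) were called. With the mimic 0 members were called, 1 with the replicate block (STX8, -0.44) and 1 among genes at or above the median level (STX7). All genes called with the mimic were 192, 1281 with the replicate block and 240 of 9209 at or above the median level. They were 92 with only the arrays compared, 642 with the array set as a block and 39 to 264 without 1 array. Between both treatments 2 members were called, 0 after a second quantile normalization and with the array set as a block, 1 with the variance trend, 5 with only the arrays compared and 0 to 2 without 1 array. Genes there were 289, 830 with the replicate block, 1474 with only the arrays compared and 58 to 568 without 1 array. They were 363 after the second quantile normalization, 385 with the array set as a block and 286 with the variance trend.

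Against the parts of NC1, only the arrays compared gave 1 member for the siRNA against NC1 1 to 3 (371 genes, against 1050), 1 for the mimic against NC1 1 to 3 (909, against 1575), 1 for the mimic against NC1 4 to 6 (728, against 642) and 1 between the parts (973, against 1850). The second quantile normalization gave 1, 1 and 2 for the first 3 of these (1027, 1505 and 730 genes). The genes at or above the median level gave 2 for the mimic against NC1 4 to 6 (699 of 9209 genes). Without 1 array the members called were 1 to 4, 1 to 2, 0 to 1 and 1 to 3, and the genes 517 to 1410, 930 to 2105, 363 to 836 and 1062 to 2382.

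Among the members, SIN3A and CFTR, directions turned only for differences that were not called. With the array set as a block these were STX3 with the siRNA (-0.089, also with the replicate block), with the mimic STX3 (0.0013), STX8 (0.022) and SNAP29 (0.044), and between treatments STX3 (0.090) and SIN3A (-0.53). STX4 (-0.13) and STX12 (-0.061) turned with the mimic under the replicate block, at their values against NC1 1 to 3. The second quantile normalization turned STX4 with the mimic (-0.0059), VAMP3 with the mimic against NC1 1 to 3 (-0.12) and STX7 between the parts (-0.11). Without 1 array, VAMP3 (-0.081 to 0.026) and STX3 (-0.015 to 0.039) turned with the siRNA, VAMP3 (-0.00088 to 0.11) against NC1 4 to 6, STX4 (-0.039 to 0.20) with the mimic, and STX7 (-0.061 to 0.029) and SIN3A (-0.036 to 0.13) between treatments. With the mimic against NC1 1 to 3 these were VAMP3 (-0.065 to 0.064), VAMP7 (-0.0061 to 0.27), STX4 (-0.23 to 0.0036) and STX12 (-0.13 to 0.035). Against NC1 4 to 6 they were STX3 (-0.064 to 0.041), STX8 (-0.0068 to 0.056), SNAP23 (-0.0017 to 0.42) and SNAP29 (-0.012 to 0.096). Between the parts they were VAMP7 (-0.19 to 0.082), VAMP8 (-0.076 to 0.060), STX7 (-0.029 to 0.11) and SNAP23 (-0.27 to 0.15). The cause was not tested.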

Other observations

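STX17, the Qa-SNARE that joins SNAP29 and VAMP8 on autophagosomes, was not called higher with the siRNA. How STX17 differed from these partners was not tested. It was picked out after its values were seen. STX17 was at 5.17, 5.54 and 5.08 with SIN3A siRNA, at 5.40, 5.64 and 5.32 in NC1 1 to 3, at 5.85, 5.68 and 5.54 in NC1 4 to 6, and at 5.86, 5.71 and 5.77 with the miR-138 mimic. The siRNA arrays overlapped NC1 1 to 3 and lay below NC1 4 to 6. Its log2 fold change with the siRNA was -0.31 (SE 0.12, limma adjusted p = 0.195) against all NC1 arrays, -0.20 against NC1 1 to 3 (limma adjusted p = 0.427) and -0.43 against NC1 4 to 6 (limma adjusted p = 0.0325, lost without siRNA 1, siRNA 3, NC1 4 or NC1 5, up to 0.159). Between mimic and siRNA it was 0.52 (SE 0.14, limma adjusted p = 0.0780), a difference that did not pass.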
